A study of Homo sapiens with 9 samples.

Results

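The enzymes that hydroxylate and crosslink collagen were followed in MDA-MB-231, an established line of human breast adenocarcinoma cells, across 3 culture conditions. The genes were chosen by name and matched by Ensembl identifier. The rule uses no measured value, but it was written with earlier results of these data known. They are the prolyl hydroxylase subunits *P4HA1*, *P4HA2* and *P4HA3*, the lysyl hydroxylases *PLOD1*, *PLOD2* and *PLOD3*, the lysyl oxidases *LOX*, *LOXL1* and *LOXL2*, and the collagen chaperone *SERPINH1*. These 10 genes were found among the 60664 genes listed, and 10 of 10 passed the filter on low counts that left 18264 genes for testing.

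RNA was collected on day 6 from 3 groups of 3 samples. Scramble control (SC) cells, labelled WT in genotype and treated with scramble RNA, were kept either at the baseline viscosity of 0.77 cP or at an elevated viscosity of 8 cP. Cells with a *TRPV4* knockdown (shTRPV4) were kept at 8 cP, and all 3 groups carried a hairpin, either scrambled or against *TRPV4*, a calcium-permeable ion channel of the cell membrane. According to the methods, viscosity was raised by adding methylcellulose, a thickener, to the medium, and hairpins were delivered by lentivirus with puromycin selection, which gives a pool of transduced cells rather than a clone. The methods name a single hairpin sequence against *TRPV4* for all work outside an extended data figure. Other effects of this hairpin, and differences between the transduced pools, cannot be told apart from loss of *TRPV4*. Knockdown cells at 0.77 cP were not analysed here, so whether the knockdown alters the response to viscosity cannot be tested. Neither the labels nor the methods say whether replicates were separate cultures, so p-values measure the spread between these samples, which may be technical.

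Collagen chains are hydroxylated on proline and lysine in the endoplasmic reticulum by enzymes that need oxygen, iron and ascorbate. Prolyl hydroxylation keeps the collagen helix stable at body temperature, and lysyl hydroxylation prepares sites for sugars and for crosslinks. SERPINH1, also called HSP47, holds the folded procollagen during export, and the secreted copper enzymes of the lysyl oxidase family then oxidize lysine residues so that collagen and elastin fibres can be crosslinked. In breast tumours these enzymes are known for stiffening the matrix around cells, and several of their genes, among them *P4HA1*, *P4HA2*, *PLOD2* and *LOX*, are known targets of hypoxia-inducible factor.

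The deposited counts summed to between 64571681 and 103518036 per library, and no library was a copy of another. Levels are given in CPM, counts scaled to a common library size with edgeR's trimmed mean of M values (TMM). For *TRPV4*, the target of the hairpin, 40, 28 and 54 counts were found at baseline viscosity, 64, 45 and 24 in the SC libraries of 8 cP, and 7, 1 and 13 in the knockdown. Between the groups at 8 cP the log2 fold change was −2.51 ± 0.49 (SE, adjusted p = 0.00219, edgeR's quasi-likelihood test). Its counts were low in every library, and the shTRPV4 libraries did not overlap with the others. The mesenchymal genes *VIM* and *CD44*, which mark this line, stood at 754 CPM or more in all libraries, and *ESR1*, *PGR* and *CDH1* did not exceed 0.133 CPM. *EPCAM* (16.9 to 19.4 CPM) and *CLDN4* (126 to 209 CPM), epithelial genes often low in this line, were present. *CLDN3* (2.12 to 3.49 CPM), a further such gene, was lower in shTRPV4 cells than at baseline viscosity (log2 fold change −0.45, adjusted p = 0.00402). Of 6 fibroblast markers, *PDGFRA*, *DCN* and *THY1* did not exceed 0.0779 CPM in any library. *LUM* (0.607 to 1.6 CPM) was higher in shTRPV4 cells than in either SC group, and *FAP* (0.109 to 0.584 CPM) passed no test. *PDGFRB* (3.8 to 6.63 CPM) was lower in SC cells at 8 cP than at 0.77 cP (log2 fold change −0.51, adjusted p = 0.00553). It was also lower in shTRPV4 cells than at baseline viscosity (−0.31, adjusted p = 0.0335). Of 6 leukocyte and endothelial markers, 5 did not exceed 0.186 CPM. Of these, *CD68* shares 1765 of its 2163 exon bases with another gene on its strand, so its low counts are a weak sign of absence. *PECAM1* (1.98 to 6.22 CPM) was lower in SC cells at 8 cP than at 0.77 cP (log2 fold change −0.86, adjusted p = 0.00159). It was also lower in shTRPV4 cells than at baseline viscosity (−1.20, adjusted p = 1.66e-05). Some of these markers thus moved alongside the results below. *VIM* had log2 fold changes of −0.17 between the viscosities, −0.28 between the groups at 8 cP and −0.45 between shTRPV4 cells and baseline viscosity. In the same order *CLDN4* had −0.28, −0.29 and −0.57, and *ANXA1*, a further marker of this line, −0.30, −0.34 and −0.64, all past the threshold. The line marker *AXL* rose between the viscosities (0.22, adjusted p = 0.0155) and fell between the groups at 8 cP (−0.31, adjusted p = 0.0017). *CD44* was higher in shTRPV4 cells than at baseline viscosity (0.19, adjusted p = 0.00201) and did not pass in the other comparisons. Their part in the results was not tested. The share of counts on mitochondrial genes lay between 2.039 and 2.581% in SC libraries and between 3.275 and 3.399% in shTRPV4 libraries. It therefore moved with the knockdown in both comparisons of shTRPV4 cells, where its part in the results was not tested, and overlapped between the SC groups.

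All 10 genes were expressed, over a wide range. Per kilobase of the canonical transcript, *SERPINH1* had the highest level in SC cells at 0.77 cP (276 ± 8.24 CPM per kb, mean ± SD, n = 3), above 98.6% of the genes tested. *LOXL2* followed at 140 ± 2.9, *PLOD1* at 124 ± 4.76 and *P4HA1* at 92.7 ± 5.55 CPM per kb, each above the next beyond their spread. *PLOD3* (50.0 ± 1.33 CPM per kb) and *PLOD2* (48.3 ± 1.7 CPM per kb) overlapped and cannot be ordered. Lower levels were found for *LOX* (22.8 ± 1.8 CPM per kb), *P4HA2* (17.8 ± 0.438) and *LOXL1* (6.2 ± 0.146). *P4HA3* came last at 0.411 ± 0.0395 CPM per kb, a level below which lay 23.5% of the genes tested. With all annotated exons merged as the length, *SERPINH1* and *P4HA3* kept the first and last place, *PLOD2* dropped below *LOX*, and *P4HA1* moved above *PLOD1*.

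Within each family the genes differed in level. *P4HA1* made up 83.6 ± 0.489% of the summed per-kilobase level of the prolyl hydroxylase subunits in SC cells at 0.77 cP, and *PLOD1* made up 55.8 ± 0.409% of that of the lysyl hydroxylases (SD, n = 3). Such shares depend on the length used. With all annotated exons merged, the same cells had 82.2 CPM per kb for *P4HA1* and 7.98 for *P4HA2*. *PLOD1* then had 69.3, *PLOD2* 12.5 and *PLOD3* 24.8 CPM per kb. Among the lysyl oxidases *LOXL4*, which is not among the 10 genes, had 56.8 ± 4.82 CPM per kb, above *LOX* and *LOXL1*. With *LOXL3* and *LOXL4* included, *LOXL2* made up between 60.9 and 63.8% and *LOXL4* between 23.6 and 25.9% of the summed level of the 5 genes.

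**Figure D1:**
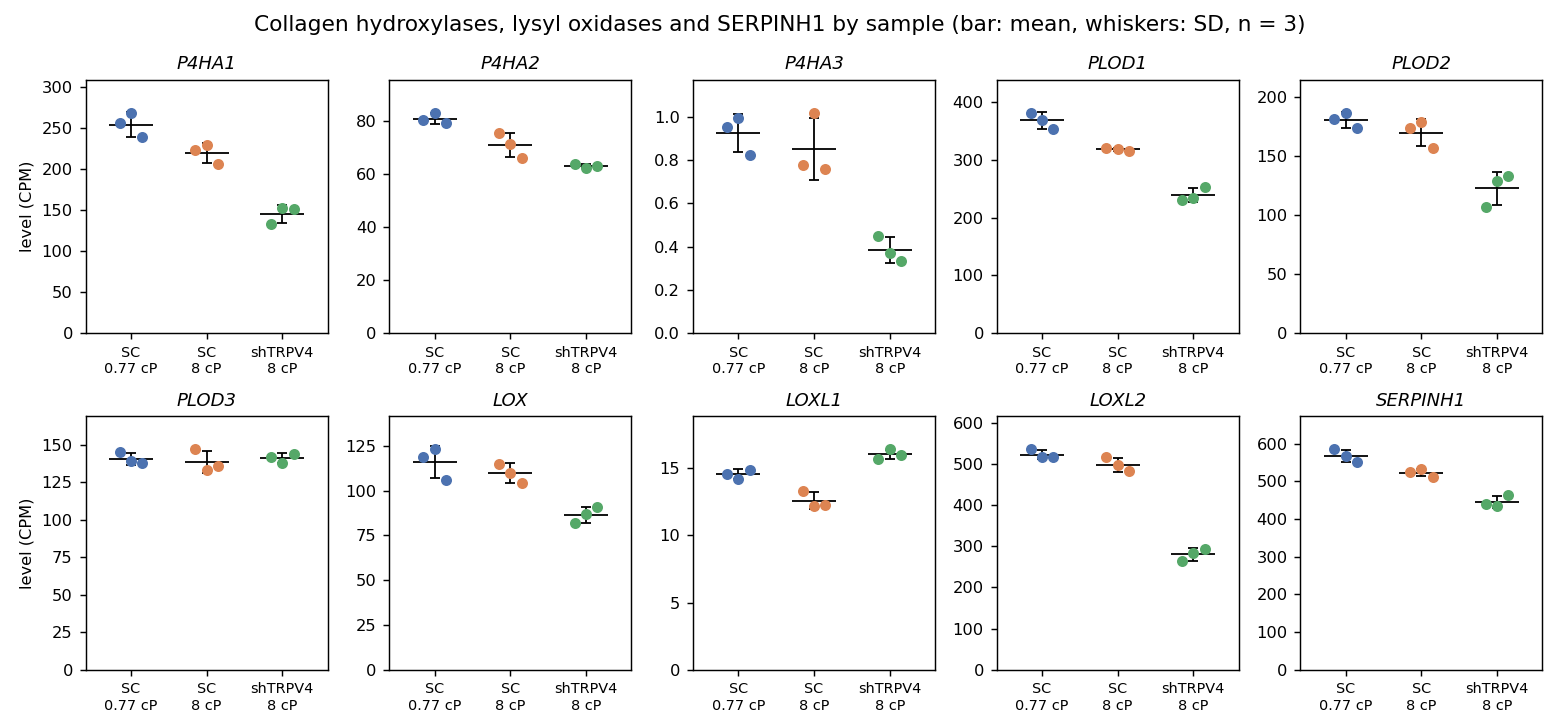
Level of each gene in CPM (vertical axes, from 0) in the 3 samples of each group (points), with the mean (bar) and SD (whiskers, n = 3). In all panels but *PLOD3* and *LOXL1* the shTRPV4 samples sit below all SC samples, *PLOD3* is level in the groups, and *LOXL1* is highest in shTRPV4 cells.

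The comparison of SC cells at 8 cP with SC cells at 0.77 cP asks how the enzymes respond to elevated viscosity. *PLOD1*, *P4HA1*, *P4HA2* and *LOXL1* fell modestly, each by between 12.4 and 13.6%. The other 6 did not pass the threshold of an adjusted p of 0.05 (edgeR, Benjamini-Hochberg over all genes tested). No gene of the 10 was higher, with 0 also at an unadjusted p below 0.05 and 0 in DESeq2. Of all genes tested 9.69% were lower, 9.57% were higher and 19.3% passed in either direction. The median log2 fold change of the 10 genes was −0.11, against −0.0065 over all genes tested. In bulk RNA, fewer cells expressing a gene and less RNA per cell cannot be told apart, here and in the comparisons that follow.

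Among the prolyl hydroxylase subunits, which carry the catalytic site and pair with P4HB, *P4HA1* had 256, 269 and 239 CPM at 0.77 cP and 224, 230 and 206 CPM at 8 cP. The groups did not overlap, and the log2 fold change was −0.21 ± 0.062 (SE, adjusted p = 0.0289). *P4HA2*, the subunit of the second form of the enzyme, had 80.4, 83.0 and 79.1 CPM at 0.77 cP and 75.2, 71.1 and 66.1 CPM at 8 cP. Again no sample at 8 cP reached the lowest at 0.77 cP (log2 fold change −0.19 ± 0.049, adjusted p = 0.015). *P4HA3* had 0.955, 0.998 and 0.826 CPM against 0.779, 1.02 and 0.76 CPM, with overlapping groups, and its log2 fold change of −0.11 had a 95% interval from −0.54 to 0.32.

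Of the lysyl hydroxylases, *PLOD1*, which acts on lysines within the collagen helix, had 382, 370 and 354 CPM at 0.77 cP and 321, 319 and 316 CPM at 8 cP. The samples at 8 cP were tight and all lower, giving a log2 fold change of −0.21 ± 0.047 (adjusted p = 0.00672), the smallest adjusted p of the 10 genes in this comparison. *PLOD2*, which hydroxylates lysines in the telopeptides at the chain ends, had 182, 187 and 174 CPM against 174, 179 and 157 CPM. These values overlapped (log2 fold change −0.09, 95% interval −0.24 to 0.06). *PLOD3*, which also adds sugars to hydroxylysine, had 145, 139 and 138 CPM against 147, 133 and 136 CPM, and its interval from −0.12 to 0.07 on the log2 scale was narrow around 0.

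Of the lysyl oxidases, *LOXL1*, an isoenzyme known for elastic fibres, had 14.6, 14.2 and 14.9 CPM at 0.77 cP and 13.3, 12.2 and 12.3 CPM at 8 cP. The groups were separate (log2 fold change −0.21 ± 0.061, adjusted p = 0.0285). *LOX*, the founding enzyme of the family, had 119, 123 and 106 CPM against 115, 110 and 104 CPM. *LOXL2*, an oxidase known for its action on type IV collagen, had 535, 516 and 517 CPM against 516, 497 and 482 CPM. Neither passed the test: the 95% interval of the log2 fold change ran from −0.20 to 0.05 for *LOX* and from −0.17 to 0.03 for *LOXL2*.

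The chaperone *SERPINH1* had 585, 568 and 552 CPM at 0.77 cP and 525, 532 and 513 CPM at 8 cP. Every sample at 8 cP was lower, yet the log2 fold change of −0.12 ± 0.044 missed the threshold (adjusted p = 0.0684). It passed when only the 6 SC libraries were fitted (adjusted p = 0.0468) or without replicate 1 of shTRPV4 cells (0.0497).

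These calls depended on single libraries. The count of 4 genes went to 1 without replicate 1 or replicate 2 at 0.77 cP, to 1 without replicate 3 at 8 cP and to 2 without replicate 2 at 8 cP. The adjusted p rose to between 0.0655 and 0.169 for *P4HA1* on leaving out replicate 1 or 2 at 0.77 cP or replicate 1 or 3 at 8 cP. It rose to between 0.0516 and 0.119 for *P4HA2* on leaving out replicate 1 or 2 at 0.77 cP or replicate 2 or 3 at 8 cP, and to between 0.0639 and 0.129 for *LOXL1* on leaving out any replicate at 0.77 cP or replicate 2 or 3 at 8 cP. *PLOD1* passed the test in all of these fits. The median log2 fold change ranged from −0.154 without replicate 3 at 0.77 cP to −0.066 without replicate 3 at 8 cP. A larger fall than that of *PLOD1* was seen in 4196 genes, 23.0% of those tested.

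The comparison of shTRPV4 cells with SC cells at 8 cP asks what the *TRPV4* knockdown changes at elevated viscosity. Here 8 of 10 genes fell, led by *P4HA3*, *LOXL2* and *P4HA1*, *LOXL1* rose, and *PLOD3* did not pass the test. Of all genes tested 11.0% were lower, 9.02% were higher and 20.0% passed in either direction. The median log2 fold change of the 10 genes was −0.38, against 0.00064 over all genes tested, and 8 or 9 genes passed whichever library was left out.

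*LOXL2* had the smallest adjusted p. Its level was 516, 497 and 482 CPM in SC cells and 264, 283 and 293 CPM in shTRPV4 cells, so the groups lay far apart. The log2 fold change was −0.83 ± 0.048 (adjusted p = 2.08e-08), so that *LOXL2* fell by 43.8%, and 476 of the genes tested fell further. *LOX* had 115, 110 and 104 CPM against 81.7, 87.0 and 90.8 CPM, also without overlap, and fell by 0.34 ± 0.060 on the log2 scale (adjusted p = 0.000873). *LOXL1* went the other way, from 13.3, 12.2 and 12.3 CPM to 15.7, 16.4 and 16.0 CPM. Every knockdown sample exceeded every SC sample (log2 fold change 0.35 ± 0.061, adjusted p = 0.00102), and this was the only member of the 10 to rise in any of the 3 comparisons.

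Counted with *LOXL3* and *LOXL4*, the summed per-kilobase level of the 5 lysyl oxidases was 204 ± 10.8 CPM per kb in SC cells at 8 cP and 156 ± 12.9 CPM per kb in shTRPV4 cells (SD, n = 3). *LOXL2* supplied between 64.4 and 67.4% of it in SC cells and between 47.3 and 50.1% in shTRPV4 cells. *LOXL4* supplied between 19.1 and 22.4% and between 33.5 and 37.6%, and *LOXL1* between 2.52 and 2.74% and between 4.1 and 4.72%. The level of *LOXL4* itself was 43.0 ± 5.49 CPM per kb in SC cells and 56.3 ± 7.93 CPM per kb in shTRPV4 cells. These shares depend on the length used. With all annotated exons merged, *LOXL2* had a mean of 83.3 CPM per kb in SC cells and 46.8 in shTRPV4 cells. *LOXL4* has 3597 bases by either length, so in shTRPV4 cells its mean was then above that of *LOXL2*. Over *LOX*, *LOXL1* and *LOXL2* alone the sum was 161 ± 5.88 and 99.2 ± 4.97 CPM per kb. No test was made on shares or sums.

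*P4HA1* fell from 224, 230 and 206 CPM to 133, 153 and 151 CPM. The highest knockdown sample lay well below the lowest SC sample, and the log2 fold change was −0.60 ± 0.062 (adjusted p = 8.95e-06). *P4HA2* had 75.2, 71.1 and 66.1 CPM in SC cells and 63.7, 62.1 and 62.9 CPM in shTRPV4 cells. This fall was the smallest of the 8 (log2 fold change −0.17 ± 0.050, adjusted p = 0.0237), and leaving out replicate 1 or 2 of SC cells or replicate 2 or 3 of shTRPV4 cells raised the adjusted p to between 0.0514 and 0.131.

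*P4HA3* showed the largest log2 fold change of the 10 genes at the lowest level. It had 77, 99 and 69 counts in SC cells and 41, 29 and 30 counts in shTRPV4 cells, or 0.779, 1.02 and 0.76 CPM against 0.448, 0.371 and 0.332 CPM. The groups were separate, and the log2 fold change of −1.15 ± 0.22 (adjusted p = 0.00191) had a 95% interval from −1.63 to −0.68, the widest of the 10. Of the genes tested 1.26% fell further.

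Of the lysyl hydroxylases, *PLOD1* went from 321, 319 and 316 CPM to 230, 234 and 253 CPM. Its fall of 25.0% (log2 fold change −0.41 ± 0.047, adjusted p = 1.91e-05) exceeded the spread within either group. *PLOD2* went from 174, 179 and 157 CPM to 107, 129 and 133 CPM. Replicate 1 of shTRPV4 cells was the lowest of the 9 libraries for this gene, as it was for *P4HA1*, *PLOD1*, *LOX* and *LOXL2*, but the groups did not overlap (log2 fold change −0.47 ± 0.070, adjusted p = 0.00026).

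*PLOD3* did not pass the test, with 147, 133 and 136 CPM in SC cells and 142, 138 and 144 CPM in shTRPV4 cells. Its log2 fold change of 0.03 had a 95% interval from −0.07 to 0.13, which does not reach the falls fitted for *PLOD1* and *PLOD2*. Its share of the per-kilobase level of the lysyl hydroxylases was between 23.4 and 25.2% in SC cells and between 29.8 and 32.3% in shTRPV4 cells, while that of *PLOD1* went from between 52.3 and 54.1% to between 48.6 and 49.5%.

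*SERPINH1* fell from 525, 532 and 513 CPM to 440, 434 and 463 CPM. The change was modest but larger than the spread of the replicates (log2 fold change −0.23 ± 0.044, adjusted p = 0.00163). It was still the gene with the highest per-kilobase level of the 10 in shTRPV4 cells (217 ± 7.39 CPM per kb). *PLOD1* (80.3 ± 4.06 CPM per kb) and *LOXL2* (75.3 ± 3.97 CPM per kb) overlapped there, whereas in SC cells at 8 cP *LOXL2* (134 ± 4.61 CPM per kb) lay above *PLOD1* (107 ± 0.822 CPM per kb).

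**Figure D2:**
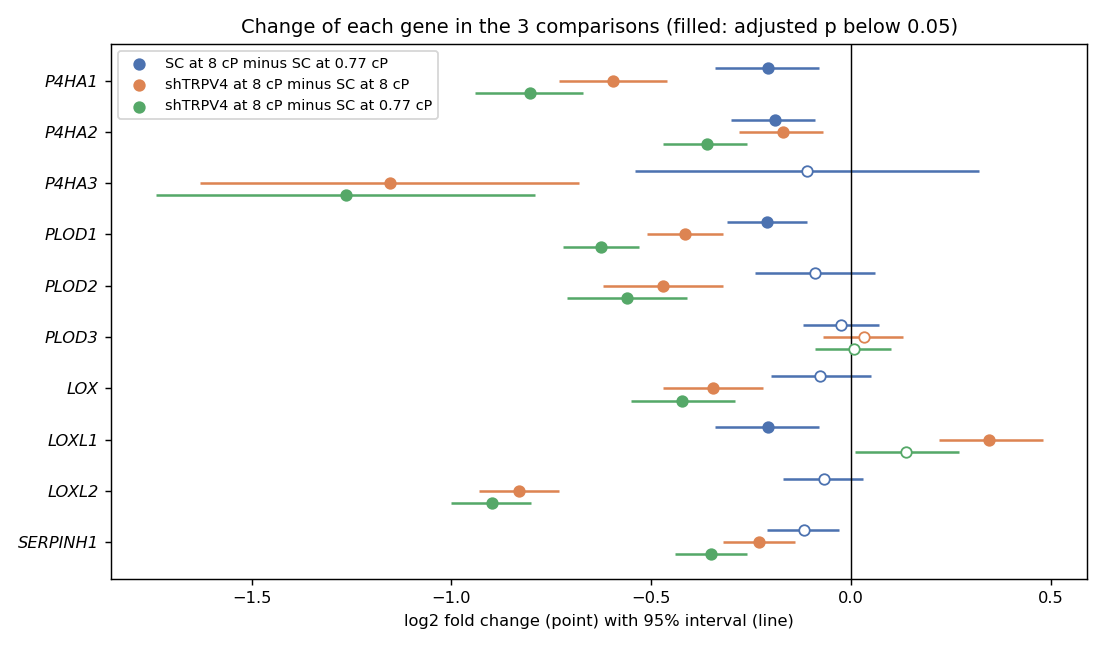
Log2 fold change of each gene (points, horizontal axis) with its 95% interval (lines) in the 3 comparisons; filled points have an adjusted p below 0.05. In both comparisons of shTRPV4 cells 8 of the 10 genes lie left of 0, *P4HA3* and *LOXL2* furthest, *PLOD3* lies near 0, and *LOXL1* (0.35) lies right of 0 between shTRPV4 and SC cells at 8 cP.

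The comparison of shTRPV4 cells at 8 cP with SC cells at 0.77 cP joins knockdown and viscosity and shares its samples with the other comparisons. In it 8 of 10 genes were lower and 0 were higher (1, *LOXL1*, at an unadjusted p below 0.05 and 0 in DESeq2), when 22.0% of all genes tested were lower, 20.4% were higher and 42.4% passed in either direction. The median log2 fold change of the 10 genes was −0.49, against −0.011 over all genes tested. *LOXL2* (−0.90 ± 0.048, adjusted p = 2.35e-09), *P4HA1* (−0.80 ± 0.062, adjusted p = 1.4e-07) and *PLOD1* (−0.62 ± 0.047, adjusted p = 1.01e-07) had the smallest adjusted p. *P4HA3* had a log2 fold change of −1.26 ± 0.22 (adjusted p = 0.00031), from 90, 64 and 85 counts to 41, 29 and 30.

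Smaller falls were those of *PLOD2* (log2 fold change −0.56), *LOX* (−0.42), *P4HA2* (−0.36) and *SERPINH1* (−0.35), with adjusted p between 1.48e-05 and 4.93e-05. *LOXL1* was higher in every shTRPV4 sample than in every SC sample at 0.77 cP but missed the threshold (log2 fold change 0.14 ± 0.061, adjusted p = 0.0823). *PLOD3* did not pass either (95% interval −0.09 to 0.10 on the log2 scale). The summed per-kilobase level of the 10 genes was 779 ± 22.9 CPM per kb in SC cells at 0.77 cP, 713 ± 19.5 in SC cells at 8 cP and 546 ± 21.4 in shTRPV4 cells (SD, n = 3).

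Other genes of the collagen machinery moved in both directions. Counts in this list and those that follow are to be read beside the shares of all genes tested. These were 9.57% higher and 9.69% lower between the viscosities, and 9.02% and 11.0% between the groups at 8 cP. For shTRPV4 cells against baseline viscosity they were 20.4% and 22.0%. Of 15 other enzymes and partners of hydroxylation, glycosylation, folding and crosslinking, 1 was higher and 4 were lower in shTRPV4 than in SC cells at 8 cP, with a median log2 fold change of −0.0077. *P3H1*, a prolyl 3-hydroxylase, had 126, 119 and 130 CPM in SC cells and 106, 103 and 102 CPM in shTRPV4 cells (log2 fold change −0.27, adjusted p = 0.000506). *COLGALT2*, which adds galactose to hydroxylysine, had a log2 fold change of −0.54 (adjusted p = 0.00117). *P3H3*, a partner in lysyl hydroxylation, had a log2 fold change of −0.82 (adjusted p = 0.00433) at a low level, from 144, 132 and 106 counts to 72, 62 and 62. *P4HB*, the protein disulfide isomerase that pairs with the P4HA subunits, had 879, 871 and 873 CPM against 751, 757 and 793 CPM (log2 fold change −0.19, adjusted p = 0.00466). The gene that rose was *LOXL4*, a further lysyl oxidase, from 165, 167 and 132 CPM to 171, 211 and 225 CPM (log2 fold change 0.39, adjusted p = 0.0117).

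Between the viscosities, 1 of these 15 partners was higher and 3 were lower (median log2 fold change −0.12). *TMEM38B*, an ion channel of the endoplasmic reticulum needed for collagen folding, rose by 0.31 on the log2 scale (adjusted p = 0.00412). *LOXL4* (−0.40, adjusted p = 0.0116) and *COLGALT2* (−0.36, adjusted p = 0.0176) fell at 8 cP. In the knockdown against SC cells at baseline viscosity, 2 were higher and 7 were lower. Without replicate 1 or 2 at 0.77 cP or replicate 3 at 8 cP, the 4 genes passing between the viscosities became 1, 2 and 1.

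The collagen chains are the substrates of these enzymes. Of 12 chains 11 were tested, *COL3A1* being too low. At 8 cP 7 were lower in SC cells than at 0.77 cP (median log2 fold change −0.23) and 0 were higher in edgeR or DESeq2, with 1 higher at an unadjusted p below 0.05. *COL1A2* went from 33.1, 29.3 and 26.2 CPM to 19.4, 17.5 and 15.3 CPM (log2 fold change −0.76, adjusted p = 0.000246). *COL6A1* (−0.22, adjusted p = 0.00876) and *COL1A1* (−0.35, adjusted p = 0.0117) were also lower. The count of 7 went to 2 without replicate 1 at 0.77 cP or replicate 3 at 8 cP, and to 4 without replicate 2 of either SC group.

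Between shTRPV4 and SC cells at 8 cP, 4 chains were higher and 0 were lower, also at an unadjusted p below 0.05 and in DESeq2, with a median log2 fold change of 0.085. The highest chains by test were *COL7A1*, the anchoring fibril collagen (log2 fold change 0.59, adjusted p = 0.000878), *COL6A2* (0.39, adjusted p = 0.00225) and *COL4A2*, a basement membrane chain (0.22, adjusted p = 0.00248). Against SC cells at 0.77 cP, 1 chain was higher and 3 were lower in shTRPV4 cells, when 42.4% of all genes tested passed.

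Genes of procollagen export and propeptide processing were mixed. Of 15 tested of 16 listed, 3 were higher and 2 lower in shTRPV4 than in SC cells at 8 cP, and 2 were lower at 8 cP than at 0.77 cP. In shTRPV4 cells against SC cells at 0.77 cP 3 were higher and 3 lower. The latter counts lie near the shares of all genes tested, 20.4% higher and 22.0% lower. *MIA2*, an export factor, and *PCOLCE2*, an enhancer of propeptide cleavage, were higher with the knockdown (log2 fold change 0.39, adjusted p = 0.000173, and 0.47, adjusted p = 0.00532). *CREB3L1*, a transcription factor known to drive collagen genes, fell in that comparison (−0.20, adjusted p = 0.0118) and between the viscosities (−0.19, adjusted p = 0.0199), as did the propeptide protease *BMP1* in the latter (−0.22, adjusted p = 0.0187). The 2 genes passing between the viscosities became 0 without replicate 1 or 2 at 0.77 cP or replicate 2 or 3 at 8 cP. The 5 passing with the knockdown became 3 without any replicate of SC cells at 8 cP in turn and 2 without replicate 2 of shTRPV4 cells.

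Lysyl oxidases need copper. Of 6 copper transport genes, 2 were higher and 0 lower in shTRPV4 than in SC cells at 8 cP (1 lower at an unadjusted p below 0.05 and 0 in DESeq2). The importer *SLC31A1* went from 62.9, 62.6 and 63.8 CPM to 78.2, 77.7 and 78.5 CPM (log2 fold change 0.31, adjusted p = 0.000383), and the chaperone *ATOX1*, which hands copper to the secretory pathway, from 58.7, 59.7 and 60.8 CPM to 63.7, 67.4 and 68.2 CPM (0.15, adjusted p = 0.0272). *ATOX1* was also the 1 gene of the list that passed between the viscosities (0.18, adjusted p = 0.0138; 2 genes passed in DESeq2), and against SC cells at baseline viscosity 2 were higher and 2 lower in shTRPV4 cells. The 2 genes became 1 without replicate 1 or 2 of SC cells at 8 cP or replicate 2 of shTRPV4 cells. The 1 gene became 0 without replicate 1 at 0.77 cP or replicate 3 at 8 cP, and 3 without replicate 3 at 0.77 cP or replicate 1 of shTRPV4 cells.

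Further targets of hypoxia-inducible factor outside the 10 genes were lower in the same comparisons. Of 18 such genes 17 were lower and 0 were higher in shTRPV4 than in SC cells at 8 cP, with a median log2 fold change of −0.46. In all 3 comparisons 0 were higher at an unadjusted p below 0.05 or in DESeq2. *ERO1A*, an oxidase of the endoplasmic reticulum, went from 204, 205 and 191 CPM to 133, 140 and 147 CPM (−0.52, adjusted p = 3.78e-06). *PFKFB3*, a regulator of glycolysis, and *ADM*, the adrenomedullin gene, fell by 0.43 and 0.46 on the log2 scale (adjusted p = 6.19e-06 and 1.57e-05). *VEGFA* alone did not pass (−0.09, adjusted p = 0.322). *ALDOA*, counted as lower in all 3 comparisons, shares 1639 of its 3829 exon bases with another gene on its strand. Its counts may therefore not reflect its level.

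Between the viscosities 12 of these 18 genes were lower (median −0.27). The smallest adjusted p were those of *PFKFB3* (−0.29, adjusted p = 0.000579), *PFKFB4* (−0.46, adjusted p = 0.00316) and *ADM* (−0.25, adjusted p = 0.00389). The count of 12 was 6 without replicate 1 and 7 without replicate 2 at 0.77 cP, and 6 without replicate 3 at 8 cP. In shTRPV4 cells against baseline viscosity 18 of 18 were lower (median −0.72). Oxygen was not measured in these samples.

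**Figure D3:**
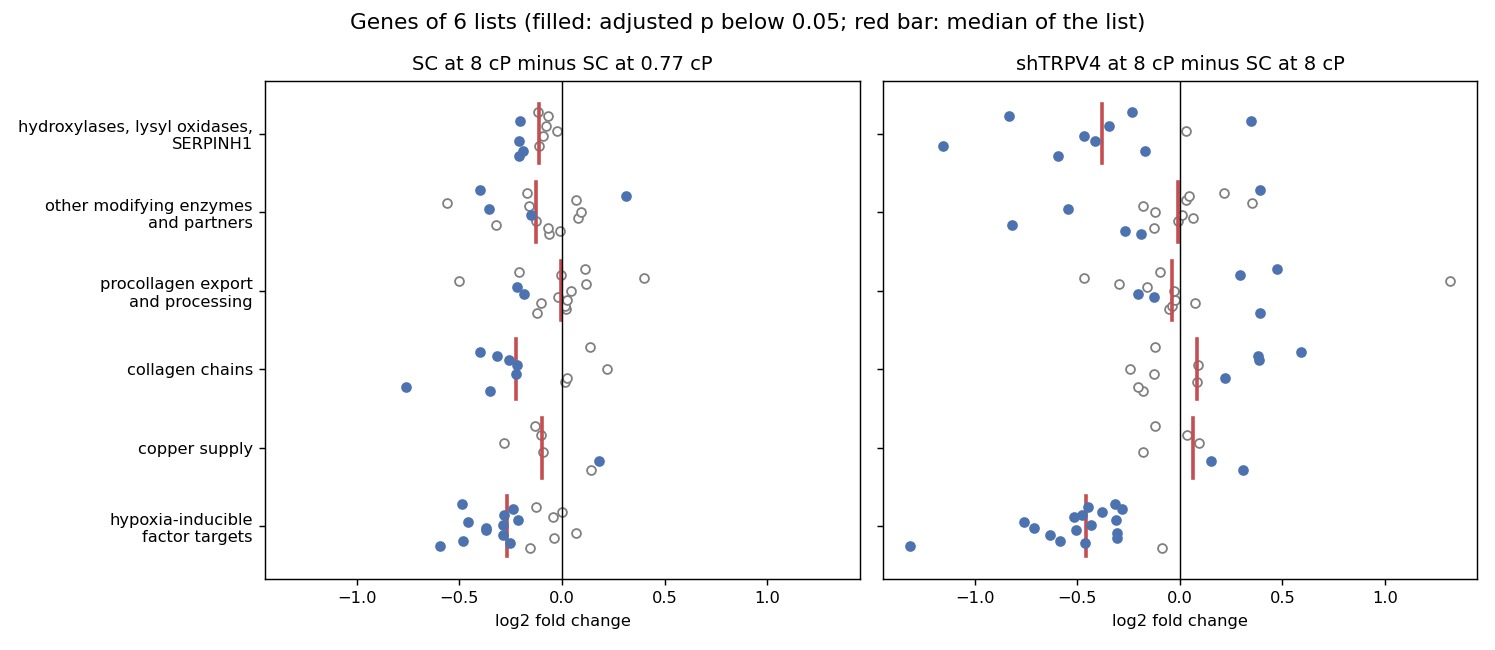
Log2 fold change (horizontal axis) of each tested gene of 6 lists, between the viscosities (left) and between shTRPV4 and SC cells at 8 cP (right); filled points have an adjusted p below 0.05 and the bar is the median of a list. On the right the medians of the 10 enzyme and chaperone genes (−0.38) and of the hypoxia-inducible factor targets (−0.46) lie left of 0, and that of the collagen chains (0.085) lies right of it.

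As several of the 10 genes and these targets were lower in the same comparison, the 250 bases before each RefSeq start site were searched on both strands for ACGTG or GCGTG, the core letters of the hypoxia response element. Windows were found for 8 of the 10 genes, *P4HA3* and *LOXL2* having none in the table used. At least 1 match was present for 5 of 8, namely *P4HA1*, *PLOD1*, *PLOD2*, *LOX* and *SERPINH1*, and for 47.4% of the 27305 genes with a window. The stretches of 29 bases around matches in 4 genes that fell with the knockdown are shown 5′ to 3′ on the strand of the gene (GRCh38.p14, RefSeq), with the 5 matching letters in capitals. CACGT is the same match read on the other strand.

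The *P4HA1* window held 1 match, 86 bases before the start, at chr10:73096936-73096964 (minus strand).
P4HA1: tgtgatcgagctCACGTagcgagggctgc
The *PLOD1* window held 2 matches, at least 2 being found for 22.6% of genes, at chr1:11934637-11934665 and chr1:11934680-11934708 (plus strand).
PLOD1, 68 bases before the start: gcgcgggggaggGCGTGgaggggcggggt
PLOD1, 25 bases before the start: ggcgggcccagtGCGTGgcagcgggacct
The *PLOD2* window held 3 matches, at least 3 being found for 9.43% of genes, at chr3:146161381-146161409, chr3:146161368-146161396 and chr3:146161314-146161342 (minus strand).
PLOD2, 213 bases before the start: gccagaagcgctGCGTGagcctccacacg
PLOD2, 200 bases before the start: cgtgagcctccaCACGTagccgcaggcag
PLOD2, 146 bases before the start: caaacagtccagACGTGgggcccaggagg
The most upstream *LOX* window held 4 matches, at least 4 being found for 3.95% of genes, at chr5:122078428-122078456, chr5:122078359-122078387, chr5:122078341-122078369 and chr5:122078285-122078313 (minus strand).
LOX, 185 bases before the start: gctccctgtgcaACGTGtctggggggagg
LOX, 116 bases before the start: ctgtccgccttgCACGTttccaatcgcat
LOX, 98 bases before the start: tccaatcgcattACGTGaacaaatagctg
LOX, 42 bases before the start: gtaactttgcaaACGTGccagaaagttta

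The other windows of *LOX* overlap each other within the annotated gene and held the same 2 matches. A window of *SERPINH1* held 3 matches and its other window 0, and those of *P4HA2*, *PLOD3* and *LOXL1* held 0. The shares of genes given count each gene by its window with the most matches. The core letters are short and common, so a match is a description of the sequence and not a binding site, and the lack of one says only that these letters are not in this window. CATTCC, the letters bound by TEAD factors, occurred in 0 of 8 and in 14.3% of genes, and TGANTCA, those bound by AP-1, in 0 of 8 and in 8.06% of genes.

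The genes lie on different chromosomes, with *P4HA2* and *LOX* far apart on chromosome 5 and *P4HA3* and *SERPINH1* on chromosome 11 (GRCh38, GENCODE release 44). *P4HA1* (ENSG00000122884) lies on chromosome 10 from 73007217 to 73096974, *PLOD1* (ENSG00000083444) on chromosome 1 from 11934205 to 11975538, *PLOD2* (ENSG00000152952) on chromosome 3 from 146035139 to 146163725, and *PLOD3* (ENSG00000106397) on chromosome 7 from 101205977 to 101218420. *P4HA2* (ENSG00000072682) spans 132190147 to 132295315 and *LOX* (ENSG00000113083) 122063195 to 122078413 on chromosome 5. *P4HA3* (ENSG00000149380) spans 74235801 to 74311640 and *SERPINH1* (ENSG00000149257) 75562056 to 75572783 on chromosome 11. *LOXL1* (ENSG00000129038) lies on chromosome 15 from 73925989 to 73952137. The values count reads on exons. Exon bases shared with a gene on the other strand number 548 for *P4HA2*, with *P4HA2-AS1*, and 335 for *LOXL1*, with *LOXL1-AS1*. *P4HA3* shares 204, of which 166 are with *PPME1* and 38 with *P4HA3-AS1*. *LOXL2* (ENSG00000134013) shares 178 with *LOXL2-AS1*, and the other 6 genes share fewer or none. The strand option of the counting is not given in the sources used here, so reads from such bases cannot be assigned to a strand. *LOXL2* also shares 120 exon bases on its own strand with *ENTPD4*.

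Over the 9 samples, the genes whose log2 CPM ran most like that of *PLOD1* were *CD151* (Pearson's r = 0.996), *ILVBL* (0.995), *SERPINH1* (0.995) and *P4HB* (0.994), among 9453 genes whose mean reached 10 CPM. Those most like *LOXL2* were *CAPNS1* (0.996), *NIBAN2* (0.995), *CD82* (0.995) and *RIT1* (0.994). These values describe 9 points in 3 groups that share the group differences, and carry no test.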

How the data were processed

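Strand-specific poly(A) libraries of 9 samples were sequenced by the authors as pairs of 100 bp reads. The authors mapped them to GRCh38.p13 with HISAT2 2.2.1 and counted reads on the exons of Ensembl release 104 genes with HTSeq 0.13.5 (SAMtools 1.1.3 and DESeq are also named in the submitters' processing notes). The deposited values are raw counts per gene of each sample, without normalization. Of 60664 genes, 60463 matched a symbol.

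Groups were taken from the sample titles. Counts were scaled by TMM, filtered by filterByExpr and tested with edgeR's quasi-likelihood test on all 9 samples with 1 coefficient per group, in R 4.3.3 with edgeR 4.0.16. P-values were adjusted by Benjamini-Hochberg over 18264 genes, with a threshold of 0.05. Standard errors (SE) were derived from the log2 fold change and the quasi-likelihood F statistic of each gene. The 95% intervals were built from these errors with the moderated degrees of freedom of the fit. The common biological coefficient of variation was 0.0633. Counts hold no molecular identifiers, and the libraries held 64571681 to 103518036 counts, so that counting error was largest, among the 10 genes, for *P4HA3*, with 29 to 99 counts per library. Levels per kilobase use the length of the canonical transcript in GENCODE release 44.

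The 10 genes and the lists were chosen with earlier results of these data known. Named are the 10 genes, *TRPV4*, at most the 3 genes with the smallest adjusted p of those passing in each list and comparison, and the 4 genes with the highest correlation to *PLOD1* and to *LOXL2*. *P4HB*, *VEGFA*, *ALDOA*, *COL3A1*, *LOXL3*, the rise of *LOXL4* and the markers were named beyond that rule, after their values were seen. Alternatives were upper quartile and RLE scaling, DESeq2 1.42.0, no filter, a minimum of 10 counts in each library, fits of just the 6 libraries compared, a block for the replicate number, and leaving out each library. The code was tested on simulated counts.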

Additional observations from a re-analysis of the deposited data

How the results depend on the processing

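Of 480 values of the 10 genes' fold changes under the alternatives, 456 kept their direction and their side of the threshold, 18 lost the threshold, 2 gained it and 4 changed sign. The sign changes were all of *PLOD3*, whose log2 fold change lay near 0. Between the viscosities it ranged from −0.061 to 0.013 on leaving out a library, being 0.003 without replicate 1 at 0.77 cP and 0.013 without replicate 2 at 8 cP. With the knockdown against baseline viscosity its value was −0.010 with upper quartile scaling and ranged from −0.007 to 0.033 on leaving out a library.

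Between the viscosities the count of genes passing the test ranged from 1 to 5 on leaving out a library, against 4 with all, and *LOXL1* missed the threshold without the filter on low counts (adjusted p = 0.0652, edgeR). The calls lost there and for *P4HA2* with the knockdown were otherwise lost on leaving out a library, which lowers the number of samples. The median log2 fold change of the 10 genes with the knockdown against baseline viscosity ranged from −0.539 to −0.426 on leaving out a library, against −0.491.

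The deviations of same-numbered replicates were weakly correlated (r across genes from −0.0546 to 0.0904). Between the SC groups r was 0.0455, 0.032 and 0.0904 for same-numbered replicates, against −0.0591 to 0.0167 for the others. Values this weak cannot show whether the numbers pair the samples. With the replicate block 4, 9 and 8 of the 10 genes passed in the 3 comparisons, and no call changed. Of 240 counts of genes passing in the related lists, 26 moved. The medians of these lists were not computed under the alternatives. No scaling moved the median of all genes by more than 0.0155 on the log2 scale.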
